A study of Mus musculus with 12 samples.

Results

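Transcripts of 10 genes of the death receptor and necroptosis pathways were measured in B16F10 cells, a mouse melanoma line from C57BL/6 mice. The genes were selected by name, as the rows of the deposited count table whose Ensembl identifiers map to Fas, Tnfrsf10b, Tnfrsf1a, Tnfrsf1b, Tnfrsf12a, Ripk1, Ripk3, Mlkl, Cflar and Fadd. They are 10 of 54232 genes in the table, and all 10 were among the 14924 genes that passed the filter on low counts. Fas, Tnfrsf1b and Ripk3 had few reads and passed it only with the help of the Tumor group described below. The study asked how melanoma cells escape an immunotherapy that clears most of the tumor, and its 12 libraries form 4 groups of 3. WT were untreated cultured cells. The relapsed lines ITF1, Rel and ITM were sorted from tumors that had relapsed after immunotherapy and then grown to confluency in culture, so each is a single line. Lyso cells were incubated with T cell-derived lysosomes, that is, granules concentrated from the medium of activated CD8+ T cells, for 48 hours according to the labels, whereas the study's methods give a shorter incubation on poly-L-lysine-coated plates and do not say that WT cells were plated that way. Tumor cells (replicates 1, 3 and 4) were sorted from relapsed tumors and their RNA was extracted at once. The tumors had been raised under the skin of mice and injected with a tumor-binding antibody against TRP1, anti-CD40 and TNFα, itself a ligand of 2 of the receptors described here. The labels give an age of 6 weeks for all libraries, cultured cells included, whereas the study's methods give older mice. Nothing in the labels says that libraries of a group came from separate cultures or animals, so p-values measure the spread between these libraries. Pairs of libraries within a group were compared by a scaled chi-squared statistic, which rises as counts differ beyond counting error. It was 1.59 for Lyso 2 with Lyso 3, but 12.9 to 13.2 for Lyso 1 with either. Pairs within the other groups ran from 3.89 to 73.4. Whether Lyso 2 and Lyso 3 share a culture was not tested. If they do, the spread behind the Lyso calls is understated.

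Death receptors are members of the TNF receptor superfamily that carry a death domain on the inner side of the membrane. Once bound by ligand, they gather the adaptor FADD and caspase-8, which starts apoptosis, while the FADD-like protein encoded by Cflar competes with caspase-8 and restrains it. The kinase RIPK1 joins the complex at the TNF receptor and, depending on how it is ubiquitinated, passes on survival signals or death signals. Where caspase-8 is blocked, RIPK1 and RIPK3 assemble through a shared interaction motif and RIPK3 phosphorylates MLKL, which then breaks the plasma membrane in necroptosis. Melanoma lines often hold little RIPK3.

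Counts on genes ran from 1667398 and 2350129 in WT 1 and WT 2 to 16384021 in WT 3. The relapsed lines had 12749399 to 16402629 counts, with a range from 10895611 to 12675277 in Lyso and of 3102442 to 5049496 in Tumor. Levels are given as CPM, that is, counts scaled to a common depth with the library sizes adjusted by the trimmed mean of M-values (TMM). A level of 3 counts, treated here as the floor, amounted to 1.80 CPM in the shallowest library, WT 1, and to 0.183 CPM in the deep WT 3, and floors and intervals cover counting error only. All 10 melanocyte markers were above 3 counts in every library. The fibroblast markers, by contrast, summed to 7707 to 10710 CPM in Tumor and to at most 39.5 CPM in WT, and in bulk RNA fewer cells of a type and less RNA per cell cannot be told apart. A gene was called higher or lower at a Benjamini-Hochberg adjusted p under 0.05 in edgeR's quasi-likelihood test, adjusted over all 14924 genes.

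In brief, Lyso cells held more transcript of 4 of the 10 genes than WT, namely Tnfrsf1a (2.7-fold), Mlkl (2.33-fold), Cflar (1.73-fold) and Ripk1 (1.7-fold). Tumor libraries held more Tnfrsf1b (13.6-fold), Ripk3 (11.8-fold) and Fas (7.55-fold) and less Tnfrsf10b (1.7-fold). They also held markers of fibroblasts and of other cell types, as described below. No member was called in the relapsed lines. Over all genes tested, 4.71% were called between Lyso and WT, 19% between Tumor and WT and 0.0402% between the relapsed lines and WT. The 4 of 10 members in Lyso and the 4 of 10 in Tumor thus stand beside backgrounds of different height. Fas, Tnfrsf1b and Ripk3 passed the filter only with the Tumor libraries present. In fits of WT with only Lyso or only the relapsed lines, the filter removed them. The counts of members that differ in Tumor are therefore not independent of the filter. By direction, 3.5% of all genes were higher and 1.21% lower in Lyso, 12.1% higher and 6.94% lower in Tumor, and 0.0134% higher and 0.0268% lower in the relapsed lines. The libraries of a group and of WT did not overlap for 5 members in Lyso, 7 in Tumor and 2 in the relapsed lines, beside 27.4%, 36.1% and 10.6% of all genes. These 3 comparisons share the WT libraries.

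The promoters of the members that rose in Lyso, and of Tnfrsf1b, which rose most in Tumor, are shown because several members moved together. RefSeq windows of GRCm38.p6, from 250 bases before to 50 bases after an annotated start, were at hand for 9 of the 10 members in 10 windows, Ripk1 having a pair of starts. The motifs GAAA-NN-GAAA, as in interferon-stimulated response elements, TTCNNNGAA, the core bound by STAT dimers, and GGG-NN-TTTCC, a κB-like sequence, were searched on both strands, with N for any base. They were found in 3.44%, 8.30% and 1.63% of 32851 windows of all genes, respectively. Among the 9 members, GAAA-NN-GAAA or its reverse complement was present in 3 (Ripk1, Cflar and Tnfrsf1b), TTCNNNGAA in 4 (Fas, Tnfrsf1a, Tnfrsf1b and Ripk1) and GGG-NN-TTTCC in 0. Capitals mark the matches in the windows of Tnfrsf1a (chr6:125349473-125349772, plus strand), Ripk1 (the window at chr13:34002624-34002923, plus strand), Cflar (chr1:58711241-58711540, plus strand), Mlkl (chr8:111338156-111338455, minus strand) and Tnfrsf1b (chr4:145246821-145247120, minus strand), written in the direction of transcription.
Tnfrsf1a: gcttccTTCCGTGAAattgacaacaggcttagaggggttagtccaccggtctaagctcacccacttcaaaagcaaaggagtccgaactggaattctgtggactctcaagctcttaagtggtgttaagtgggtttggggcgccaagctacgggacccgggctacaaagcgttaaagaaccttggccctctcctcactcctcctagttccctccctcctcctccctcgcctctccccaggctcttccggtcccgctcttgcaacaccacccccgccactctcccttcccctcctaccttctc
Ripk1: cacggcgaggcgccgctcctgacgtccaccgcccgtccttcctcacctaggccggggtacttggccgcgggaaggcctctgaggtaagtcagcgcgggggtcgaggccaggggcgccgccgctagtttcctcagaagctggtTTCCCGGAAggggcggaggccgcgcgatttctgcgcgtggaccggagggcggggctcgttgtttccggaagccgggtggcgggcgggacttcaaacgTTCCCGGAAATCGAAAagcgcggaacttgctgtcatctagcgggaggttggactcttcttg
Cflar: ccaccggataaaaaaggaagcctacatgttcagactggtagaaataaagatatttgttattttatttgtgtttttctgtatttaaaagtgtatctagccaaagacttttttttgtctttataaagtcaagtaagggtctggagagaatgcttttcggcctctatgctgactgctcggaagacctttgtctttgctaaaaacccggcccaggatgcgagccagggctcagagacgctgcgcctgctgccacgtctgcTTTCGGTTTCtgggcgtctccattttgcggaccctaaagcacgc
Mlkl: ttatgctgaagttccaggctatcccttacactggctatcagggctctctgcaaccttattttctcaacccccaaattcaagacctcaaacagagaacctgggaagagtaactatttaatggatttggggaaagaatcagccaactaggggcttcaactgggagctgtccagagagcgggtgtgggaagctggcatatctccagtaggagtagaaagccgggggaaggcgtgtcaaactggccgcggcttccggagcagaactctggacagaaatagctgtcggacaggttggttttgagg
Tnfrsf1b: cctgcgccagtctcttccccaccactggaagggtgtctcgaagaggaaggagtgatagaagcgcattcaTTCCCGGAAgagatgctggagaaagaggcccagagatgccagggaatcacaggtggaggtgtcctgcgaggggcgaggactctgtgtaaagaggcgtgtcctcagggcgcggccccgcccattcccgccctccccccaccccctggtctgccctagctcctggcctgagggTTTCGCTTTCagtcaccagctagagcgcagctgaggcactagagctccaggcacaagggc
In the Ripk1 window shown, a TTCNNNGAA match and the GAAA-NN-GAAA match overlap just before the start, and a further TTCNNNGAA match lies upstream. The other Ripk1 window, at chr13:34002113-34002412, spans the annotated first base of the gene and holds no match. Members were counted by gene and the background by window. The Cflar match lies 6 bases after the start and the Tnfrsf1a match 244 bases before it, while the Mlkl window holds none of these letters. A match is a description of the sequence, and binding was not measured.

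Tnfrsf1a encodes TNFR1, the death-domain receptor of TNF (ENSMUSG00000030341, chromosome 6, 125349362 to 125362484, plus strand). It stood at 157, 108.5 and 133 CPM in WT 1, 2 and 3 and at 136.5, 126 and 87.2 CPM in ITF1, Rel and ITM. In Lyso it reached 392, 330 and 354 CPM, and in Tumor 1, 3 and 4 it was at 151, 131 and 144.5 CPM. Every Lyso library thus lay above every other library, whereas WT, relapsed and Tumor libraries overlapped. The log2 fold change of Lyso over WT was 1.43 ± 0.18 (SE, edgeR adjusted p = 0.000603). Tumor differed from WT by 0.10 ± 0.18 on the log2 scale and the relapsed lines by -0.19 ± 0.17, and neither passed the test (edgeR adjusted p = 0.746 and 0.731).

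Tnfrsf1b encodes TNFR2, the TNF receptor without a death domain, which recruits TRAF2 and is known mainly from leukocytes and endothelium (ENSMUSG00000028599, chromosome 4, 145213463 to 145246870, minus strand). Its counts were 1, 1 and 6 in WT and 3, 2 and 1 in the relapsed lines ITF1, Rel and ITM. They were 11, 8 and 4 in Lyso and 14, 30 and 24 in the shallower Tumor libraries, which came to 4.55, 6.04 and 5.65 CPM against 0.354 to 0.566 CPM in WT. No Tumor library overlapped any library of another group. Tumor exceeded WT by 3.76 ± 0.51 on the log2 scale (edgeR adjusted p = 0.000283) and the relapsed lines by 5.2 ± 0.48 (edgeR adjusted p = 7.09e-06). The ratio of pooled CPM of Tumor to WT was 14.6, with an exact 95% counting interval of 6.99 to 35.1. Lyso did not differ from WT by the test (0.81 ± 0.57, edgeR adjusted p = 0.495).

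Fas, the receptor of Fas ligand (ENSMUSG00000024778, chromosome 19, 34290666 to 34327772, plus strand), was close to the floor of detection in culture. WT 1 and WT 2 held 0 counts and WT 3 held 5, and ITF1, Rel and ITM held 5, 8 and 0. The Lyso libraries held 7, 10 and 9 counts (0.660, 0.932 and 0.729 CPM) and the Tumor libraries 4, 9 and 9 (1.30, 1.81 and 2.12 CPM). In WT 1, 0 counts allow a level of up to 1.80 CPM, which is above Tumor 1, so the contrast rests on WT 3 and on the pooled depth. The log2 fold change of Tumor over WT was 2.92 ± 0.86 (edgeR adjusted p = 0.0326), and the pooled ratio was 7.54 with a counting interval of 2.79 to 25.5. With WT 3 as the only control the adjusted p was 0.122 (edgeR, log2 fold change 2.52), and it rose to between 0.051 and 0.0992 on leaving out WT 2, WT 3, Lyso 3, Tumor 1, Tumor 3 or Tumor 4. The Lyso libraries all lay above the WT libraries in CPM, at 1.73 ± 0.87 on the log2 scale, which did not pass the test (edgeR adjusted p = 0.311).

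Tnfrsf10b, the mouse receptor of the ligand TRAIL (ENSMUSG00000022074, chromosome 14, 69767472 to 69784411, plus strand), was measured at 18.7, 13.9 and 18.9 CPM in WT and at 14.8, 13.0 and 9.29 CPM in ITF1, Rel and ITM. It was at 19.0, 16.7 and 19.1 CPM in Lyso and at 13.3, 9.26 and 8.47 CPM in Tumor. The Tumor libraries lay below all WT libraries, though Tumor 1 came within 1 CPM of WT 2, and Lyso overlapped WT. The decrease in Tumor was -0.76 ± 0.24 on the log2 scale (edgeR adjusted p = 0.0391). This call was narrow, since the adjusted p came to 0.0576 with WT 3 as the only control, to 0.0501 with a minimum of 10 counts, to 0.0674 in a fit of Tumor and WT alone and to between 0.0503 and 0.157 without WT 1, WT 3, Tumor 3, Tumor 4 or any of the Lyso libraries in turn. The relapsed lines differed from WT by -0.49 ± 0.22 (edgeR adjusted p = 0.432).

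Tnfrsf12a encodes Fn14, the receptor of TWEAK, which has no death domain (ENSMUSG00000023905, chromosome 17, 23675445 to 23677468, minus strand). Its libraries spread widely within groups, with 87.7, 154.5 and 182 CPM in WT and 170, 56.0 and 45.9 CPM in ITF1, Rel and ITM. Lyso libraries were close together at 114.5, 112 and 117 CPM, and Tumor libraries stood at 59.8, 60.2 and 86.2 CPM. All 3 Tumor values lay below the lowest WT value, but by less than the spread of WT, and the log2 difference of -1.06 ± 0.42 was not called (edgeR adjusted p = 0.0993). It was called in a fit of Tumor and WT alone (0.0328), without a filter on low counts (9.53e-05) and without WT 1 (0.0428) or ITF1 (0.00568). The line ITF1 lay within the WT range while Rel and ITM lay below it. Without ITF1 the relapsed lines were called lower than WT, at -1.49 on the log2 scale (edgeR adjusted p = 0.026). The whole comparison changed in that fit, with 131 of 15357 genes called, beside 6 of 14924 with ITF1. Between Tumor and WT, 3399 of 15357 genes were called without ITF1, beside 2843 of 14924 with it.

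**Figure D1:**
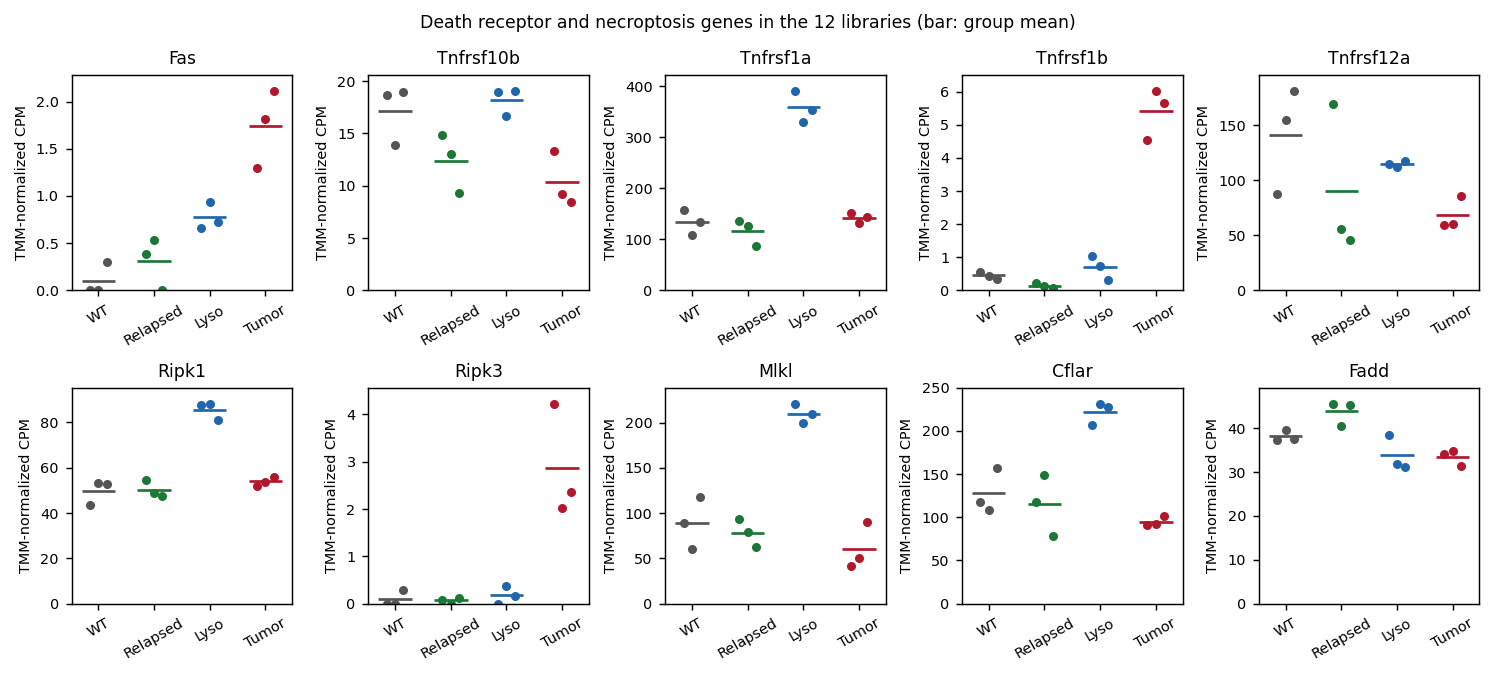
TMM-normalized CPM of each of the 10 genes (linear axis from 0) in every library, by group (3 points each; the bar is the group mean). Tnfrsf1a, Ripk1, Mlkl and Cflar stand highest in Lyso, with every Lyso library above every other library; Fas, Tnfrsf1b and Ripk3 stand highest in Tumor.

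Fadd, the adaptor between death receptors and caspase-8 (ENSMUSG00000031077, chromosome 7, 144577318 to 144582463, minus strand), varied little over the 12 libraries. It was at 37.4, 39.7 and 37.7 CPM in WT, at 45.6, 40.6 and 45.4 CPM in ITF1, Rel and ITM, at 38.6, 32.0 and 31.2 CPM in Lyso and at 34.1, 34.8 and 31.3 CPM in Tumor. None of the differences from WT was called, and their log2 sizes were 0.20 ± 0.12 in the relapsed lines, -0.17 ± 0.12 in Lyso and -0.19 ± 0.12 in Tumor. Between Tumor and the relapsed lines, where 19.6% of all genes were called, Fadd was lower in Tumor by -0.39 ± 0.12 (edgeR adjusted p = 0.0348). Its exons share 239 bases, 6.12% of their length, with the antisense gene Faddos, and since the strand setting of the counting is not given in the sources used here, reads of the pair cannot be told apart there.

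Cflar encodes c-FLIP, the brake on caspase-8 (ENSMUSG00000026031, chromosome 1, 58711508 to 58758884, plus strand). The counts do not separate its long and short isoforms. It stood at 117, 108.5 and 157.5 CPM in WT, at 118, 149 and 77.9 CPM in ITF1, Rel and ITM and at 90.7, 92.8 and 101 CPM in Tumor. In Lyso it was at 207, 231.5 and 228 CPM, above every other library. The log2 fold change of Lyso over WT was 0.79 ± 0.20 (edgeR adjusted p = 0.0459). WT 3, the deep WT library, was also the highest for Cflar, and with it as the only control the log2 fold change was 0.49 (edgeR adjusted p = 0.449). The call was also lost with library size as the only scaling (0.69, edgeR adjusted p = 0.0701) and on leaving out WT 1, WT 2 or any Lyso or Tumor library (edgeR adjusted p of 0.0612 to 0.149). Tumor lay below WT without overlap, at -0.44 ± 0.21, and did not pass the test (edgeR adjusted p = 0.161).

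Ripk1 (ENSMUSG00000021408, chromosome 13, 34002363 to 34037147, plus strand) encodes the kinase at the branch point of survival, apoptosis and necroptosis. It was at 43.6, 53.2 and 52.8 CPM in WT, at 54.4, 48.7 and 47.3 CPM in ITF1, Rel and ITM and at 52.0, 53.7 and 56.0 CPM in Tumor, so that these 9 libraries overlapped. In Lyso it was at 87.5, 88.2 and 81.2 CPM. The increase over WT was 0.77 ± 0.11 on the log2 scale (edgeR adjusted p = 0.00141), and with WT 3 as the only control it was still called (edgeR adjusted p = 0.0322). Of its exonic bases, 511 (6.12%) are shared with the pseudogene Gm17084 on the same strand and 241 (2.89%) with Serpinb6a on the other strand.

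Ripk3, the kinase that phosphorylates MLKL (ENSMUSG00000022221, chromosome 14, 55784995 to 55788865, minus strand), was at or near 0 in all cultured cells. WT 1 and WT 2 held 0 counts and WT 3 held 5, the lines ITF1, Rel and ITM held 1, 0 and 2, and the Lyso libraries held 0, 4 and 2. Tumor libraries held 13, 10 and 10 counts, which at their depth came to 4.23, 2.01 and 2.35 CPM, against 0.373 CPM in the highest other library. No Tumor library overlapped any other. The log2 fold change of Tumor over WT was 3.56 ± 0.79 (edgeR adjusted p = 0.00697), and 5.11 ± 0.76 over the relapsed lines (edgeR adjusted p = 0.000411). Without WT 3, the only WT library with a count, the call against WT was narrow (edgeR adjusted p = 0.0465). Pooled over libraries, the ratio of Tumor to WT was 11.3 with a counting interval of 4.39 to 37.1, and that of Tumor to the relapsed lines was 39.9 with an interval of 12.5 to 204. Lyso did not differ detectably from WT, with a pooled ratio of 0.751 and an interval from 0.191 to 3.11 that covers changes in either direction.

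Mlkl, the executor of necroptosis (ENSMUSG00000012519, chromosome 8, 111311797 to 111338177, minus strand), was well expressed in every group. It stood at 88.9, 60.0 and 118 CPM in WT and at 93.6, 79.7 and 62.0 CPM in ITF1, Rel and ITM. In Lyso it rose to 221, 200 and 209 CPM, and in Tumor 1, 3 and 4 it was at 41.9, 49.9 and 90.2 CPM. The Lyso libraries lay apart from all others and the Tumor libraries overlapped WT. The log2 fold change of Lyso over WT was 1.22 ± 0.28 (edgeR adjusted p = 0.0252), and with WT 3 as the only control it was 0.82 (edgeR adjusted p = 0.293). The call was also lost without WT 2 or without any single Lyso library (edgeR adjusted p of 0.0637 to 0.0945). The difference of Tumor from WT was -0.57 ± 0.28 (edgeR adjusted p = 0.187), and without Tumor 4, the highest Tumor library, it was called lower at -0.97 (edgeR adjusted p = 0.0287).

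**Figure D2:**
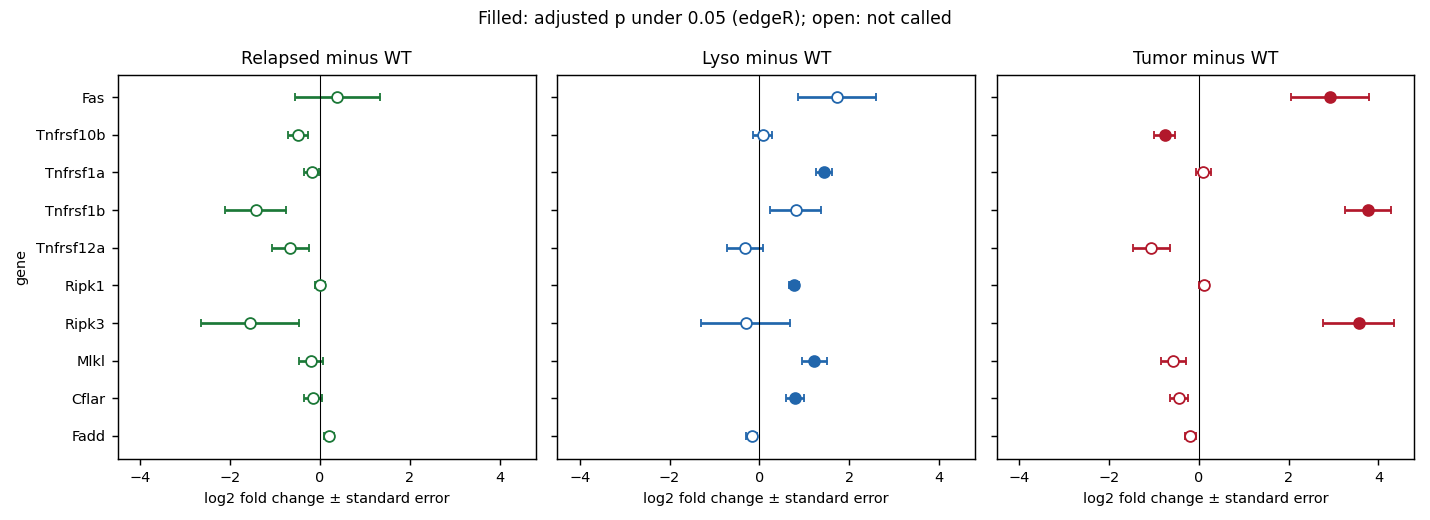
Log2 fold change with its standard error (edgeR, horizontal axis) of each member in the relapsed lines, Lyso and Tumor, each against WT; filled points passed an adjusted p of 0.05. Filled points are absent from the relapsed lines, number 4 to the right of 0 in Lyso, and number 3 to the right and 1 to the left of 0 in Tumor.

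Set directly against each other, Tumor and Lyso differed in 7 of the 10 genes, beside 24.7% of all genes called in that comparison (14.2% higher and 10.5% lower in Tumor). Their libraries did not overlap for 9 members, beside 54.9% of all genes. Tnfrsf1b (2.96 ± 0.40 on the log2 scale) and Ripk3 (3.86 ± 0.70) were higher in Tumor. Mlkl (-1.79 ± 0.28), Tnfrsf1a (-1.33 ± 0.18), Cflar (-1.23 ± 0.21), Tnfrsf10b (-0.84 ± 0.23) and Ripk1 (-0.67 ± 0.11) were lower in Tumor than in Lyso, with edgeR adjusted p of 0.000156 to 0.0164 over the 5. Fas was not called between them (1.18 ± 0.63, edgeR adjusted p = 0.196), nor were Tnfrsf12a and Fadd. Between Lyso and the relapsed lines, where 7.69% of all genes were called (4.87% higher, 2.81% lower), 5 members were higher in Lyso, namely Tnfrsf1a (1.62 ± 0.17), Mlkl (1.42 ± 0.27), Cflar (0.95 ± 0.20), Ripk1 (0.77 ± 0.11) and Tnfrsf1b (2.24 ± 0.54), the last with 23 counts in all against 6, and libraries did not overlap for 8 members, beside 29.8% of all genes. Against the relapsed lines, Tumor was higher in 3 members (11.8% of all genes), Fas (2.53 ± 0.69), Tnfrsf1b and Ripk3, and lower in 1 (7.74% of all genes), Fadd, and libraries did not overlap for these 4, beside 37.5% of all genes. In the comparison of the relapsed lines with WT, 0 members were called by edgeR and 0 by DESeq2. There 1 of the 10, Tnfrsf10b, had an unadjusted edgeR p under 0.05, beside 1636 of all 14924 genes. Over the 10 members the absolute log2 fold change against WT had a median of 0.30 in the relapsed lines, 0.78 in Lyso and 0.67 in Tumor, beside 0.20, 0.23 and 0.33 over all genes tested.

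Levels can be set against each other only per length, here as CPM per kb of exonic length. In WT, Tnfrsf12a (73.2 ± 25, SD, n = 3), Tnfrsf1a (51.3 ± 9.43) and Mlkl (38.6 ± 12.6) led, and their libraries overlapped from each to the next. Cflar (10.1 ± 2.06) and Fadd (9.80 ± 0.32) followed and overlapped each other, and then came Ripk1 (5.98 ± 0.65) and Tnfrsf10b (3.15 ± 0.52), each apart from its neighbours. Tnfrsf1b, Fas and Ripk3 lay lowest, at 0.117, 0.0477 and 0.0429 CPM per kb, and did not differ beyond their spread. In Lyso the leading order was Tnfrsf1a (138 ± 12.1), Mlkl (91.2 ± 4.51) and Tnfrsf12a (59.3 ± 1.46), without overlap between neighbours. In Tumor the last 4, Tnfrsf10b (1.90 ± 0.48), Tnfrsf1b (1.42 ± 0.20), Ripk3 (1.25 ± 0.52) and Fas (0.846 ± 0.20), each overlapped the next.

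Ratios of members within a library do not depend on how that library was scaled. The level of Ripk3 per kb was below that of Ripk1 by 2.45 ± 0.60 log2 units in Tumor (mean log2 ratio -2.45, libraries from -2.87 to -1.76), whereas the log2 ratio in the cultured libraries with a Ripk3 count was -5.62 in WT 3, -7.61 and -6.76 in the relapsed lines and -7.11 and -6.02 in Lyso. Mlkl exceeded Ripk3 by 3.30 to 5.25 log2 units in Tumor and by 8.64 in WT 3. Tnfrsf1b relative to Tnfrsf1a was at -5.28 ± 0.31 in Tumor, -8.78 ± 0.29 in WT, -10.4 ± 0.67 in the relapsed lines and -9.72 ± 0.85 in Lyso. Tumor thus stood apart from the other groups in these 3 ratios wherever both genes had counts. The ratio of Cflar to Casp8, the brake to its caspase, ran from -1.42 to -1.28 in Lyso, from -1.99 to -1.55 in WT and from -2.08 to -1.75 in Tumor. Casp8 itself was at 128 CPM in Lyso and 100.3 CPM in WT, a log2 difference of 0.35 ± 0.12 that was not called (edgeR adjusted p = 0.132), and at 84.2 CPM in Tumor (-0.25 ± 0.12, edgeR adjusted p = 0.177).

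The genes around the members were taken from 6 lists of 87 genes in all, of which 74 were tested. Between Lyso and WT 11 rose and 1 fell (16.2% of those tested, beside 4.71% of all genes). Between Tumor and WT 6 rose and 6 fell (16.2%, which is below the 19% of all genes). Between the relapsed lines and WT 0 were called by edgeR or DESeq2. There 5 of the 74 had an unadjusted edgeR p under 0.05, beside 1636 of all 14924 genes. With WT 3 as the only control, 4 of the lists' genes were called in Lyso, all of them higher. Of the 8 death ligands, only Tnfsf10 and Tnfsf12 passed the filter on low counts. Tnfsf10, which encodes TRAIL, the ligand of the Tnfrsf10b receptor, held 9 counts in WT and 275 in Lyso, where it was at 7.07, 9.13 and 8.26 CPM (log2 fold change 4.26 ± 0.54, edgeR adjusted p = 0.000733). Tnfsf12, which encodes TWEAK, was at 2.45 CPM in WT, 2.31 in Lyso and 3.39 in Tumor and was not called. Summed by group in the order WT, relapsed, Lyso and Tumor, Fasl held 0, 0, 2 and 3 counts and Tnf held 4, 5, 4 and 12. Lta was at 14 counts in Lyso and 1 in WT, Ltb at 13 and 3, and Tnfsf14 and Tnfsf15 at 0 in both.

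Among the inputs and regulators of necroptosis, 4 of 20 rose in Lyso, where 3.5% of all genes did, and in Tumor 2 rose and 2 fell, a share close to the 19% of all genes. Zbp1, the sensor of Z-form nucleic acid that can engage RIPK3 directly, was at 70.7, 68.3 and 63.5 CPM in the Lyso libraries and at 0, 0 and 1.53 CPM in WT (log2 fold change 5.91 ± 0.68, edgeR adjusted p = 0.000425). In Tumor it was at 11.1, 10.1 and 41.2 CPM, also called higher (4.22 ± 0.70, edgeR adjusted p = 0.00121), with Tumor 4 far above the other two. Tlr3, the receptor of double-stranded RNA (1.84 ± 0.41 in Lyso), Adar, which edits such RNA (1.10 ± 0.27), and Flot2 (0.65 ± 0.17) were the others that rose in Lyso, while in Tumor Peli1 rose (0.57 ± 0.13) and Ticam1, the adaptor of TLR3, fell (-0.89 ± 0.21), as did Aurka (-0.67 ± 0.21).

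Of the 10 apoptotic effectors, 3 rose in Lyso (30%, where 3.5% of all genes rose), among them Daxx (1.37 ± 0.14 on the log2 scale) and Bak1 (0.83 ± 0.19). Bax was the 1 called in Tumor, where it fell (-0.79 ± 0.16, edgeR adjusted p = 0.00348). That is 10% of the list, below the 19% of all genes called. Of 22 tested adaptors, ubiquitin ligases and kinases, 2 rose in Lyso (9.09%, where 3.5% of all genes rose), Rnf31 (1.34 ± 0.25) and Rbck1 (0.40 ± 0.10). Both encode subunits of the linear ubiquitin ligase that acts on RIPK1. In Tumor Birc3, a ubiquitin ligase of the TNF receptor complex, rose (1.87 ± 0.33), and Tradd, the adaptor of TNFR1 (-0.62 ± 0.14), and Ikbkg (-0.64 ± 0.17) fell. They made up 13.6% of the tested genes of that list, which is below the 19% of all genes called. Tnfaip3, which encodes the deubiquitinase A20, was the 1 of 9 tested brakes that was called in Tumor (11.1%, beside 19% of all genes). It was at 29.9, 29.4 and 38.6 CPM there against 1.27 to 1.89 CPM in WT (4.22 ± 0.63, edgeR adjusted p = 0.000538). In Lyso the unadjusted edgeR p of all 9 brakes was 0.0635 or more. Of the 11 other TNF receptors tested, 1 rose and 1 fell in Lyso (18.2%, beside 4.71% of all genes). Tnfrsf14 rose, with 155 counts against 9 (pooled ratio 10.8, counting interval 5.53 to 24.0). Ngfr fell, with 2 counts against 49, of which 47 were in WT 3. In Tumor 2 of these receptors rose and 1 fell (27.3%, beside 19% of all genes). Tnfrsf9 (4.38 ± 0.78, edgeR adjusted p = 0.00178) and Tnfrsf21 rose, and Tnfrsf19 fell (-1.57 ± 0.30). Tnfrsf21 held 20 counts in Tumor and 0 in WT, and the exact 95% counting interval of the pooled ratio began at 8.46. With 3 counts over all WT libraries together taken as the floor, the pooled ratio was 11.4, which is not a lower bound.

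**Figure D3:**
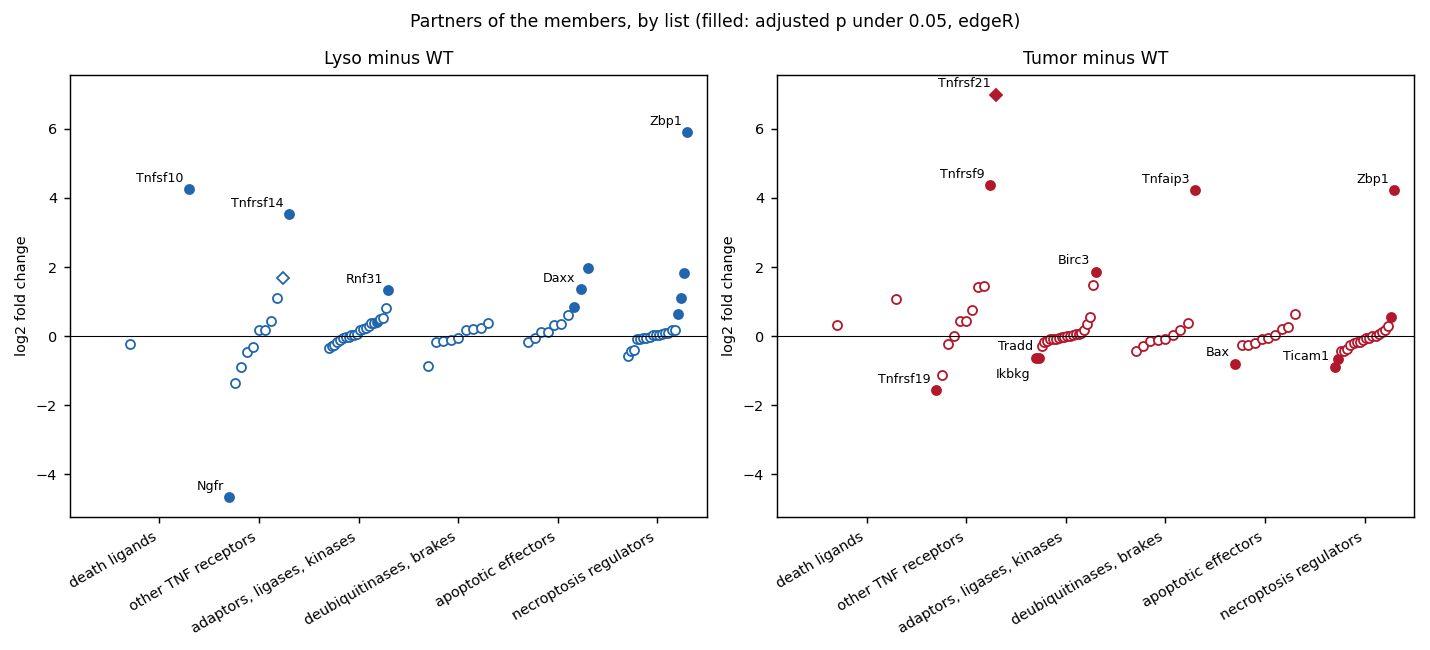
Log2 fold change over WT (edgeR, vertical axis) of the 74 tested genes of the 6 lists, in Lyso (left) and Tumor (right), sorted within each list; filled points passed an adjusted p of 0.05 and a diamond marks Tnfrsf21, whose WT libraries were all at 0, so its height is a fitted value and no bound. In Lyso 11 filled points lie above 0 and 1 below; in Tumor 6 lie above and 6 below.

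Markers of other cell types differed between the groups in which members were called. In Tumor, all 10 fibroblast markers were over 3 counts in each library and summed to 10710, 8745 and 7707 CPM in Tumor 1, 3 and 4. The 10 myeloid markers summed to 45.5, 59.0 and 73.7 CPM there, against 12.5 to 29.3 CPM in WT and 12.6 to 46.9 CPM in the relapsed lines. Most counts of the myeloid sum in WT were of Cd68 and Csf1r, which the cultured cells also held (282 and 166 counts in WT 3). Cd68 held 22, 46 and 46 counts in Tumor and 454 in ITF1. The myeloid genes C1qa, Itgam, Adgre1 and Tyrobp were at 0 in all WT libraries. In Tumor 1, 3 and 4 C1qa held 14, 27 and 23 counts, Adgre1 4, 9 and 12, Itgam 0, 5 and 8, and Tyrobp 4, 3 and 9. Among the Tumor libraries, Ripk3 was highest in Tumor 1, which had the lowest myeloid and highest fibroblast sum. Tnfrsf1b was highest in Tumor 3, which was at neither extreme of these sums but had the lowest T cell and endothelial sums. Fas was highest in Tumor 4, which had the highest myeloid, T cell and endothelial sums and the lowest fibroblast sum. Ripk3 and Fas held at most 13 counts in a library and Tnfrsf1b at most 30, so these orders rest on few counts. T cell markers summed to 3.62 to 9.89 CPM in Tumor and 1.27 to 6.79 CPM in WT, with Cd3e, Cd3d and Cd8b1 at 0 in all Tumor libraries. The endothelial sum, 279 to 325 CPM in Tumor, overlapped the 291 to 428 CPM of WT, but most of its counts were of Eng, which the cultured cells also held (7183 counts in WT 3). The endothelial genes Cdh5, Kdr and Tek were higher in Tumor, with 21, 17 and 20 counts for Cdh5, 14, 22 and 16 for Kdr and 15, 44 and 38 for Tek, against at most 1 count in any WT library, and 7 of the 8 genes were over 3 counts in all Tumor libraries against 2 in WT. The part of such cells in the Tumor levels of Fas, Tnfrsf1b, Ripk3 and Tnfrsf10b, and of the list genes called in Tumor, was not tested.

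In Lyso, the 12 T cell markers summed to 17.8, 17.9 and 15.8 CPM, above every other library. Gzmb held 64, 72 and 63 counts in the Lyso libraries and 0 in WT, and Cd8a held 22, 13 and 28 counts and 0 in WT. Between Lyso and WT, the mean levels were 359 and 133 CPM for Tnfrsf1a, 210 and 88.9 CPM for Mlkl, 222 and 128 CPM for Cflar and 85.6 and 49.9 CPM for Ripk1, and the part of T cell RNA in them was not tested. The myeloid sum was 33.5 to 37.2 CPM in Lyso, with Itgam and C1qa at 0, and the fibroblast sum was 15.1 to 18.0 CPM. The endothelial sum, at 436 to 541 CPM, was above that of every other group and was again mostly Eng, with 5 of the 8 genes at 0, among them Cdh5, Kdr and Tek.

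**Figure D4:**
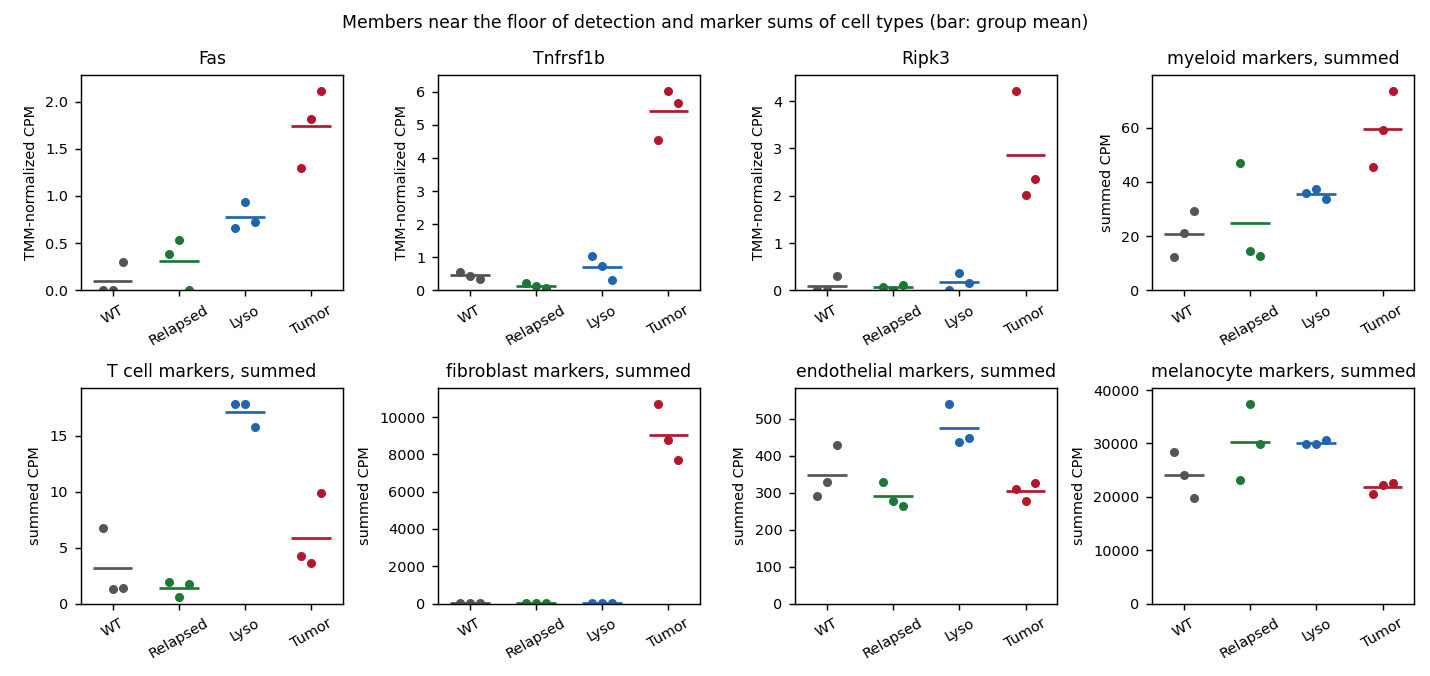
CPM of Fas, Tnfrsf1b and Ripk3 and summed CPM of the marker lists of 5 cell types in every library (linear axes from 0; bars are group means). Fibroblast markers reach 7707 to 10710 CPM in Tumor and at most 39.5 CPM elsewhere, T cell markers are highest in Lyso, and melanocyte markers are at 19810 CPM or more in every library.

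Genes whose pattern over the 12 libraries was most like that of a called member were found by Pearson's r on log2(CPM + 1), as a description that largely follows the 4 groups. For Tnfrsf1a these were Ttc39b (r = 0.989), Myd88 (0.971) and Gm26648 (0.970). For Ripk1 they were Gbp11 (0.974), Irf2 (0.974) and Misp (0.971), for Mlkl Parp11 (0.967), Herc6 (0.964) and Trim26 (0.962), and for Cflar Gm20559, Samd9l and Trpv2 (each 0.952). The members that were highest in Tumor had other neighbours, Tnfrsf1b with Gngt2 (0.988), Gm43011 (0.985) and Dpp4 (0.981), Ripk3 with Tsix (0.990), Chst2 (0.988) and Gm17971 (0.986), and Fas with Rasd2 (0.978), Ifi204 (0.963) and Hivep1 (0.959). Tnfrsf10b was most like Ern1 (0.964), Gm9732 (0.925) and Orai2 (0.913).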

How the data were processed

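The authors trimmed adaptors with fastp 0.19.6, aligned reads to GRCm38 with STAR 2.7.1a and deposited raw counts per gene, which hold whole reads without normalization; the annotation release and strand setting are not given in the sources used here. The table also has 4 rows for reads not assigned to a gene, which were left out; genes took 36.17% to 39.36% of the reads of a library. Symbols, positions and exonic lengths came from GENCODE M21 (GRCm38). The counts were fitted with edgeR 4.0.16 in R 4.3.3 (glmQLFit, glmQLFTest), with TMM, filterByExpr by group and 1 fit of all 12 libraries, with Benjamini-Hochberg adjustment over 14924 genes. The study used DESeq2 1.24.0; DESeq2 1.42.0 was an alternative here, beside other scalings, filters and sets of libraries. The fold change of a gene near 0 depends on few counts, so pooled counts with exact 95% intervals are given. All members are named, with the lists' up to 5 genes of smallest p per direction in each comparison with WT, all death ligands, Casp8 and Zbp1, and the 3 genes of most like pattern per called member. Tlr3, Adar, Flot2, Bak1, Rbck1, Peli1 and Aurka, also called, were named after their values were seen. Some values are not reported here. The members and lists were chosen with earlier results of these data known.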

Additional observations from a re-analysis of the deposited data

How the results depend on the processing

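The direction and call of Tnfrsf1a and Ripk1 in Lyso and of Tnfrsf1b and Ripk3 in Tumor were unchanged under every alternative in which they could be fitted, apart from Ripk1 under an added minimum fold. For Lyso against WT, with 4 called members in the fit of all libraries, there were 2 with WT 3 as the only control, 2 with a log2 fold change over 1 required and 3 with library size as the only scaling. For Tumor against WT they were 0 with at least 10 counts in every library compared, a filter that removes Fas, Tnfrsf1b and Ripk3, 2 with a fit of only the groups compared and 2 with WT 3 as the only control. For Tumor against the relapsed lines they were 1 under the same minimum of counts and 2 in the fit of only the groups compared. For Lyso against the relapsed lines they were 3 with the minimum fold. Over all genes, at least 10 counts left 1505 of 10332 called for Tumor against WT and 1854 of 11437 against the relapsed lines. Fits of only the groups compared called 2066 of 12301 and 2199 of 13892, respectively. Library size only called 777 of 14924 for Lyso against WT. Leaving out each library in turn gave 0 to 1 called members for the relapsed lines against WT. It gave 2 to 4 for Lyso and 2 to 5 for Tumor, each against WT. Tumor gave 2 to 4 against the relapsed lines and 6 to 8 against Lyso, and Lyso gave 4 to 6 against the relapsed lines. These fits tested 15225 to 15424 genes. Of them, 0 to 228 were called in the relapsed lines, 345 to 1049 in Lyso and 1720 to 3714 in Tumor against WT. Over all genes, Tumor gave 1976 to 3813 against the relapsed lines and 2490 to 4622 against Lyso. Lyso gave 514 to 1798 against the relapsed lines. Whether the member counts only follow this background was not tested.

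Of the 74 tested list genes, 1 was called in the relapsed lines without a filter and 1 with WT 3 as the only control, 4 in Lyso with WT 3 as the only control, and 6 in Tumor with at least 10 counts and 6 with the minimum fold. Tumor against the relapsed lines gave 7 with at least 10 counts and 9 with the minimum fold, and Tumor against Lyso gave 14 with the minimum fold. Without each library in turn they were 0 to 0 for the relapsed lines, 6 to 15 for Lyso, 8 to 17 for Tumor (each against WT), 11 to 17 for Tumor against the relapsed lines, 18 to 30 for Tumor against Lyso and 8 to 17 for Lyso against the relapsed lines.

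Signs turned only for differences that were not called. Ripk1 in the relapsed lines was at 0.0287 without a filter, and Tnfrsf10b in Lyso at -0.0278 with library size only and -0.0639 with WT 3 as the only control. Over the fits without each library in turn, the log2 fold change in the relapsed lines ran from -0.343 to 4.41 for Fas, from -0.09 to 0.0395 for Ripk1, from -2.25 to 2.49 for Ripk3, from -0.413 to 0.0794 for Mlkl and from -0.391 to 0.0525 for Cflar. In Lyso it ran from -0.0444 to 0.184 for Tnfrsf10b and from -1.22 to 3.74 for Ripk3, and in Tumor from -0.0263 to 0.222 for Tnfrsf1a. The highest values of Fas and Ripk3 came without WT 3, which leaves WT at 0 counts, so they depend on the prior count. The cause of the other turns was not tested.

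Same-numbered libraries of WT, Lyso and Tumor did not deviate together (correlations of -0.00809 to 0.0649), so they share only a number. With the replicate number as a block, 4 members were called in Lyso and 3 in Tumor, and Fas and Ripk3 could not be fitted there. No WT or Lyso library has the number of Tumor 4, so its block term absorbs that library. The Tumor difference in this fit thus rests on Tumor 1 and Tumor 3. There Tnfrsf10b was at -0.741 (edgeR adjusted p = 0.0775). Tnfrsf12a (-1.19, edgeR adjusted p = 0.0181) and Mlkl (-1.06, edgeR adjusted p = 0.0126) were called lower in Tumor. Of all genes, DESeq2 called 179 in the relapsed lines and 1058 in Lyso, where edgeR called 6 and 703, and 422 and 1371 were called without a filter. Library size as the only scaling moved the median of all genes in Lyso by -0.102, with 440 of 777 called genes higher, beside 522 of 703 with TMM. Depth limits Fas in particular, since 3 counts in WT 1 exceed the Fas level of Tumor 1.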
